A study of Rattus norvegicus with 20 samples.

Results

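Livers of 6 rats given a high dose of isodecyl diphenyl phosphate (IDDP) were compared with livers of 6 rats given a low dose, and targets of the drug-sensing receptors CAR and PXR were among the genes higher at the high doses, clock genes differed in both directions and the taurine transporter gene was lower. IDDP is an aryl phosphate ester used as a flame retardant and plasticiser. The high doses were 527.1 and 1054.2 mg/kg body weight and the low doses 66 and 132 mg/kg, with 3 rats at each dose. All 12 rats were male Harlan Sprague-Dawley rats that received 4 daily oral gavages of IDDP in corn oil, and the liver was taken on day 5. These 12 arrays were selected from the 20 of the study by the dose in the sample labels. The other arrays, 5 from corn oil vehicle rats and 3 from rats at 263.6 mg/kg, entered no test and are given where they help to place a value. The labels give no age and no record of food intake or of the hour of the day at which tissue was taken. The high and low pools differed in dose only as far as the labels say, and no rat in the comparison was untreated.

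Each value is a log2 intensity of an Affymetrix probe set, normalised by the authors with RMA, and each array holds 1 rat. Across the 12 arrays the medians lay between 6.315 and 6.399, and Pearson's r between any 2 arrays was between 0.982 and 0.996. The labelled tissue carried its markers: the 13 measured hepatocyte genes, among them Alb, Ttr and Apoa1, had pool means from 9.45 to 15.34 log2. Between the pools 0 of them differed (limma, 2 of 13 at an unadjusted p under 0.05, against 2907 of 31042 over all probe sets). The array reads both ends of the Actb and Gapdh transcripts, and the gap between 3' and 5' ends grows as RNA degrades. This gap averaged 1.69 ± 0.09 log2 in the high-dose rats and 2.03 ± 0.66 log2 in the low-dose rats (SD, n = 6 each, two-sided exact permutation p = 0.216), with the largest value, 3.25, in 132 mg/kg replicate 2. Without that rat the low-dose mean was 1.79 ± 0.30 log2.

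The liver senses foreign chemicals through nuclear receptors. The constitutive androstane receptor CAR and the pregnane X receptor PXR switch on enzymes and pumps that oxidise, conjugate and export lipophilic compounds. NRF2, released from its inhibitor KEAP1 by electrophiles and oxidants, switches on glutathione and quinone-reducing enzymes through antioxidant response elements (ARE). The liver also keeps its own clock, in which BMAL1 with CLOCK or NPAS2 activates the Per, Cry and Nr1d genes through E-boxes, and the products of the Nr1d genes repress Bmal1 and Npas2 through ROR elements.

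Between the high and the low doses, 152 of 31042 probe sets (0.49%) differed at an adjusted p under 0.05 in limma, with Benjamini-Hochberg adjustment over all probe sets. Of these 82 (0.264%) were higher and 70 (0.226%) lower at the high doses, standing for 67 and 51 named genes. The changes ran from 0.35 to 2.98 in size on the log2 scale, and 36 probe sets (0.116%) changed at least 2-fold, 17 higher and 19 lower. At an unadjusted p under 0.05 there were 2907 probe sets, where 1552.1 would be found by chance. In 102 of the 152 the 6 high-dose and 6 low-dose values did not overlap, against 299 of all probe sets (0.963%). The p-values measure the spread between rats of the same dose. The number of probe sets past the threshold moved by more than 1.5 times when certain rats were left out. It was 101, 90 and 95 without 66 mg/kg replicates 1, 2 and 3, and 268 without 132 mg/kg replicate 3. It was 98 and 96 without 527.1 mg/kg replicates 1 and 3, and 91 without 1054.2 mg/kg replicate 3.

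**Figure D1:**
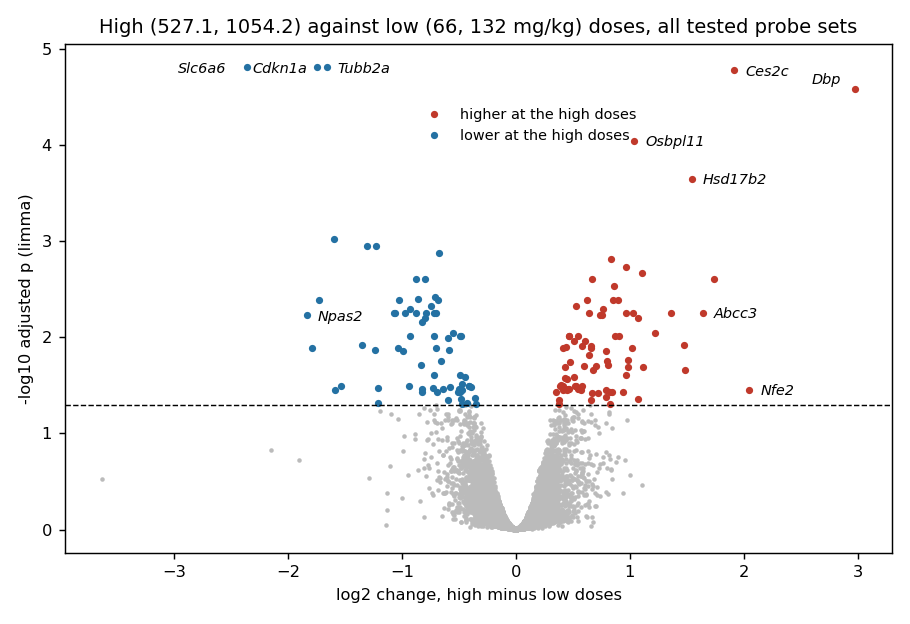
Change of each of the 31042 tested probe sets (x axis, log2 change, high minus low doses) against its adjusted p (y axis, -log10, limma). Red points are the 82 probe sets higher at the high doses, blue points the 70 lower ones, grey points those that did not pass, and the dashed line is the threshold of 0.05. Dbp at 2.98 and Slc6a6 at -2.36 are the farthest named points that passed on either side.

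Of 20 measured CAR and PXR targets, 8 were higher at the high doses and 0 lower (40.0%, against 0.788% over all genes read from 1 probe set each, 0.45% for rises and 0.338% for falls). The median change of the 20 was 0.44 log2, against 0.00 over all genes, and 18 of the 20 changes were above 0, against 50.5% over all genes. The 8 were Ces2c, Abcc3, Alas1, Abcb1a, Aldh1a1, Cyp3a23-3a1, Cyp3a18 and Ugt2b1. With any 1 rat left out, between 7 and 9 of the 20 were higher. Of related lists, 1 of 14 carboxylesterases and lipases passed (Ces2c, 7.14%, median change -0.02 log2, 6 changes above 0). Of 15 UDP-glucuronosyltransferases and sulfotransferases 1 passed (Ugt2b1, 6.67%, median change 0.12 log2), and of 7 targets of the dioxin receptor AhR 1 passed (Nqo1, 14.3%, median change -0.03 log2, 3 changes above 0).

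Ces2c, a carboxylesterase that cleaves ester drugs, had the smallest adjusted p of all rises. Its lowest, median and highest values were 11.24, 11.82 and 12.84 log2 in the high-dose rats and 9.34, 9.89 and 10.76 log2 in the low-dose rats, with no overlap. The change was 1.92 ± 0.14 log2 (SE), or 3.78-fold, with an adjusted p of 1.67e-05 in limma. Ces2c was stepped over the whole series: its means were 8.83 in vehicle rats, then 9.55, 10.43, 11.24, 11.39 and 12.43 from 66 to 1054.2 mg/kg.

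Abcc3, which pumps glucuronides and bile acids from hepatocytes into blood, had 8.90, 9.62 and 10.59 log2 (lowest, median, highest) in the high-dose rats and 7.39, 7.85 and 8.89 log2 in the low-dose rats. The highest low-dose rat lay just under the lowest high-dose rat, and the change was 1.64 ± 0.24 log2 (adjusted p = 0.00555, limma). Alas1, the rate-limiting enzyme of haem synthesis and so of cytochrome P450 supply, had 10.40, 10.97 and 11.88 log2 in the high-dose rats and 9.72, 9.89 and 10.14 log2 in the low-dose rats. Its change was 1.11 ± 0.13 log2 (adjusted p = 0.00213, limma).

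The drug efflux pump gene Abcb1a rose by 0.90 ± 0.12 log2 (adjusted p = 0.00405, limma), with 1 high-dose rat inside the low-dose range, and its second probe set changed by 0.54 log2 without passing (adjusted p = 0.301). Aldh1a1, which makes retinoic acid, rose by 0.64 ± 0.09 log2 and Ugt2b1, a glucuronosyltransferase, by 0.51 ± 0.08 log2 (adjusted p 0.00555 and 0.0109, limma). With 1 mean per pool Ugt2b1 did not pass (adjusted p = 0.0509, limma). Of the CYP3A enzymes, Cyp3a18 rose by 0.56 ± 0.11 log2 (adjusted p = 0.0347, limma). Cyp3a23-3a1, named here after its value was seen, rose by 0.58 log2 (adjusted p = 0.0123, limma). Cyp3a18 lost the call in 8 of the 12 fits that left out 1 rat (adjusted p up to 0.112). Cyp3a2 and Cyp2c6v1, at 14.57 and 14.45 log2 in the low-dose rats, changed by 0.11 and 0.13 log2 and did not pass. Probe sequences were not used, so cross-hybridisation between close relatives such as the Cyp3a genes was not tested.

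Genes of other functions were named for the size of their rise (Nfe2, AA926063) or for a small p (Osbpl11, Anxa7). Nfe2, the haematopoietic relative of NRF2, had 5.52, 7.81 and 8.56 log2 (lowest, median, highest) in the high-dose rats and 4.78, 5.29 and 6.10 log2 in the low-dose rats. Its change of 2.05 ± 0.39 log2 was uneven, because 527.1 mg/kg replicate 1 lay inside the low-dose range, and the call was lost in 8 of 12 fits without 1 rat (adjusted p 0.0353, up to 0.11, limma). Osbpl11, a gene for an oxysterol-binding protein relative, had 9.40, 9.68 and 9.95 log2 in the high-dose rats and 8.45, 8.66 and 8.79 log2 in the low-dose rats. The Osbpl11 change of 1.04 ± 0.09 log2 kept its call without any 1 rat (adjusted p = 9.03e-05, limma). Anxa7, for a calcium-dependent phospholipid-binding protein, rose by 0.84 ± 0.10 log2 (adjusted p = 0.00153, limma), and its second, dimmer probe set changed by 0.40 log2 without passing. AA926063, known only by its transcript label, rose by 1.48 ± 0.26 log2 (adjusted p = 0.022, limma), and lost the call in 5 of 12 fits without 1 rat.

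Enzymes that oxidise or reduce aldehydes, ketones and steroids moved in 1 direction as far as they passed. Of 28 measured aldo-keto reductases, aldehyde dehydrogenases and short-chain dehydrogenases, 4 rose and 0 fell (14.3%, median change 0.12 log2). Hsd17b2, which oxidises estradiol and testosterone to their weaker keto forms, had 12.09, 12.48 and 12.69 log2 in the high-dose rats and 10.31, 10.88 and 11.40 log2 in the low-dose rats. No values of the groups overlapped, and the change was 1.55 ± 0.14 log2 or 2.92-fold (adjusted p = 0.000226, limma). Akr1b7, an aldo-keto reductase of lipid aldehydes, was dim, with 4.60, 5.76 and 7.46 log2 in the high-dose rats and 4.23, 4.54 and 4.87 log2 in the low-dose rats. Its rise of 1.36 ± 0.19 log2 came from the 3 rats at 1054.2 mg/kg (7.46, 6.23 and 7.12 log2), while the rats at 527.1 mg/kg had 5.29, 4.60 and 4.64 log2. With 1 mean per pool Akr1b7 did not pass (adjusted p = 0.236, limma). Dhrs1 rose by 0.43 ± 0.08 log2 (adjusted p = 0.0263, limma). Dhrs1 lost its call in 7 of 12 fits without 1 rat (adjusted p up to 0.0934) and with the 3' minus 5' gap as covariate (adjusted p = 0.0697, limma). Aldh1a1 is the remaining one of the 4, and with any 1 rat left out 3 or 4 genes passed.

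Of 25 measured NRF2 targets, 5 rose and 0 fell (20.0%), with a median change of 0.43 log2 and 24 changes above 0. The 5 were Gsta3, Hmox1, Nqo1, Srxn1 and Mgst2. Gsta3, a glutathione transferase subunit, had 9.83, 10.72 and 11.06 log2 in the high-dose rats and 9.15, 9.41 and 10.09 log2 in the low-dose rats, a change of 1.03 ± 0.15 log2 (adjusted p = 0.00555, limma). Hmox1, the haem-degrading oxygenase, had 9.30, 9.69 and 11.04 log2 in the high-dose rats and 8.45, 9.02 and 9.13 log2 in the low-dose rats. Every high-dose rat was above every low-dose rat in Hmox1, and the change was 0.97 ± 0.17 log2 (adjusted p = 0.0249, limma). With 1 mean per pool neither passed, Gsta3 at an adjusted p of 0.0509 and Hmox1 at 0.11 (limma), and Hmox1 also lost its call in 6 of 12 fits without 1 rat.

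Nqo1, the quinone reductase, rose by 0.84 ± 0.16 log2, and Srxn1, which repairs oxidised peroxiredoxins, by 0.54 ± 0.10 log2 (adjusted p 0.0372 and 0.0347, limma). Each lost its call in 7 of 12 fits without 1 rat. The 2 other probe sets of Srxn1 changed by 0.06 and 0.30 log2 and did not pass. The glutathione synthesis genes Gclc and Gclm changed by 0.43 and 0.42 log2 and did not pass (adjusted p 0.10 and 0.23, limma). The NRF2 count depended on single rats. It was 1 without 66 mg/kg replicate 2 or without 527.1 mg/kg replicate 1 or 3, 2 without 66 mg/kg replicate 1 or 3 or 1054.2 mg/kg replicate 3, and 3 without 132 mg/kg replicate 1. It was also 1 with 1 mean per pool in place of 1 per dose, 3 with the 3' minus 5' gap as covariate and 14 with array quality weights.

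Among 19 measured glutathione transferases, which couple electrophiles to glutathione, 4 rose and 0 fell (21.1%, median change 0.24 log2). Besides Gsta3 and Mgst2, these were Gstt3 with 0.83 ± 0.16 log2 and Gsta4, which acts on lipid peroxidation aldehydes, with 0.60 ± 0.10 log2 (adjusted p 0.0372 and 0.0201, limma). Gstt3, Mgst2 and Gsta4 lost their calls in 10, 8 and 4 of 12 fits without 1 rat. Gstp1 changed by 0.73 log2 without passing (adjusted p = 0.098, limma). The count was 1 without 66 mg/kg replicate 1, 132 mg/kg replicate 1 or 527.1 mg/kg replicate 1. It was 2 without 66 mg/kg replicate 2 or 3, 132 mg/kg replicate 2, 527.1 mg/kg replicate 2 or 3, or 1054.2 mg/kg replicate 3. It was also 2 with the 3' minus 5' gap as covariate, with a median change of 0.12 log2, and 2 with 1 mean per pool, against 7 with array quality weights.

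**Figure D2:**
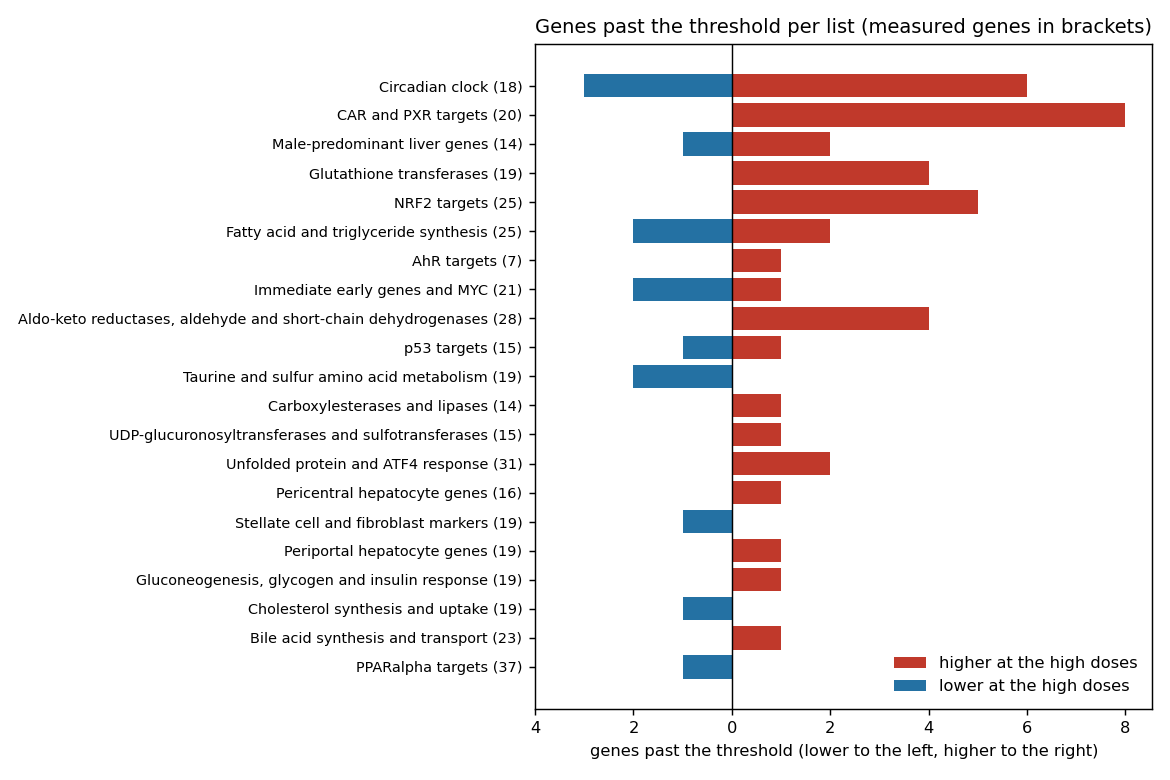
Number of genes past the threshold in each list with at least 1 (x axis, genes, higher at the high doses to the right in red and lower to the left in blue), with the number of measured genes in brackets on the y axis. CAR and PXR targets reach 8 of 20 to the right, and the circadian clock shows 6 to the right and 3 to the left of 18.

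The clock list had the highest share of calls. Of 18 measured clock genes, 9 differed (50%), 6 higher and 3 lower at the high doses. Dbp, Per3, Nr1d1, Nr1d2, Tef and Cry2 were higher, and Npas2, Bmal1 and Nfil3 were lower. The median change of the 18 was 0.33 log2. With any 1 rat left out 6 or 7 were higher and 3 or 4 lower. With array quality weights 9 were higher and 5 lower.

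The promoters of the clock genes and NRF2 targets past the threshold were taken from RefSeq on the rat assembly GRCr8, 250 bases before the transcription start to 50 after it, and searched on both strands. Of 14 genes looked up, 12 were found, without Hmox1 and Mgst2, and 5 held a match. The search was for the E-box CACGTG, the D-box TTANGTAA bound by DBP, TEF and NFIL3, the ROR element core AGGTCA and the ARE core TGACNNNGC. Over 27457 promoters of the same length these occurred in 6.65%, 2.19%, 15.7% and 12.2%. The 4 windows printed here are of clock and NRF2 genes that passed, with the matched letters in capitals, and a match describes the letters only. Bmal1 holds the ROR core 15 bases before its start (chr1:176766078-176766377, + strand) and Nr1d2 holds it 187 bases before (chr15:9954784-9955083, + strand). Tef holds the E-box 198 bases before its start (chr7:115206577-115206876, + strand). Gsta3 holds the ARE core 17 bases before its start and the D-box 8 bases after it (chr9:31154739-31155038, + strand). Srxn1 held the ROR core as well.
Bmal1: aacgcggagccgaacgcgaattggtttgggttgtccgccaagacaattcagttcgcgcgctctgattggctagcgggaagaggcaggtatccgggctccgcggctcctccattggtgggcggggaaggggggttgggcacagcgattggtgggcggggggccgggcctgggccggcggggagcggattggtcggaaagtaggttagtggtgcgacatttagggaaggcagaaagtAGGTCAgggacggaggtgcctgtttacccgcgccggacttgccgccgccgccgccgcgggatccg
Nr1d2: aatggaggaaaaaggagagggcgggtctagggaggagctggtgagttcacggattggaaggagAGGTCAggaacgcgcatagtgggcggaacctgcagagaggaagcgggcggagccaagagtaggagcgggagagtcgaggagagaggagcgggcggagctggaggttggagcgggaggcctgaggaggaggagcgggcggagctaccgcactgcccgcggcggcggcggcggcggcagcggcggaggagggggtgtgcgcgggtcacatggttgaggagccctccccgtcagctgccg
Tef: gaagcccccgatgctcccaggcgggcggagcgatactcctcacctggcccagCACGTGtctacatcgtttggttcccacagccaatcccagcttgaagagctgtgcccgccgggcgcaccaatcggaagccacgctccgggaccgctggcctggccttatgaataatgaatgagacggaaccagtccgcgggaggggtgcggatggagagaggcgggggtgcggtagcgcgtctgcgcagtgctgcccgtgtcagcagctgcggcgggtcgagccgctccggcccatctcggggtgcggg
Gsta3: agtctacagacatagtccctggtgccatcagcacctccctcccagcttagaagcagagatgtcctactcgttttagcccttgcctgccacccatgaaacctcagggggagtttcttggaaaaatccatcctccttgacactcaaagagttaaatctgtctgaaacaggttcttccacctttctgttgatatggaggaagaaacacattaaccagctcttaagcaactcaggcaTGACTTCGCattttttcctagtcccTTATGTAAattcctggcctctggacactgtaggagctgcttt

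Dbp, a clock-driven activator that binds D-boxes, showed the largest rise of all named genes. Its values were 8.59, 9.28 and 9.98 log2 (lowest, median, highest) in the high-dose rats and 5.95, 6.408 and 6.63 log2 in the low-dose rats. The gap between the pools was wider than the spread within either, and the change was 2.98 ± 0.23 log2, or 7.87-fold (adjusted p = 2.64e-05, limma). Tef, its relative, rose by 0.77 log2 in its brightest probe set, and Nfil3, which represses from the same D-boxes, changed by -1.02 ± 0.13 log2 (adjusted p 0.00506 and 0.00405, limma). The 2 dimmer probe sets of Tef changed by 0.17 and 0.29 log2 and did not pass. Nfil3 had 8.81, 9.20 and 9.36 log2 in the high-dose rats and 9.80, 10.17 and 10.65 log2 in the low-dose rats. Hlf, the remaining D-box activator of the list, changed by 0.04 log2 and did not pass.

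The repressor genes Nr1d1 and Nr1d2 were higher, and Bmal1 and Npas2 were lower. Nr1d1, which encodes REV-ERB alpha, had 8.19, 8.73 and 9.38 log2 in the high-dose rats and 6.96, 7.75 and 8.14 log2 in the low-dose rats, a change of 1.08 ± 0.16 log2 (adjusted p = 0.00628, limma). Nr1d2, which encodes REV-ERB beta, rose by 0.96 ± 0.11 log2 (adjusted p = 0.00186, limma), with another probe set at 1.02 log2 and a dim one at 0.05 log2 that did not pass. Bmal1 had 6.38, 7.19 and 7.63 log2 in the high-dose rats and 7.69, 8.25 and 8.43 log2 in the low-dose rats, a change of -1.07 ± 0.15 log2 (adjusted p = 0.00555, limma). Npas2 was most uneven among the high-dose rats, with 6.13, 7.13 and 4.99 log2 at 1054.2 mg/kg and 7.64, 7.88 and 7.65 log2 at 527.1 mg/kg, against 8.45 to 9.24 log2 in the low-dose rats. It changed by -1.83 ± 0.26 log2 (adjusted p = 0.00588, limma), and the call was lost when each pool had 1 mean (adjusted p = 0.0582). Clock changed by -0.39 log2 and did not pass. At 1054.2 and 527.1 mg/kg Nr1d1 averaged 8.43 and 9.06 log2, Nr1d2 10.11 and 9.85 log2 and Bmal1 6.87 and 7.35 log2. None of these genes passed between the high doses in limma. Whether the levels of the repressors account for those of Bmal1 and Npas2 was not tested.

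In the negative limb, Per3 had 6.407, 7.11 and 7.45 log2 in the high-dose rats and 5.43, 5.85 and 6.17 log2 in the low-dose rats, a change of 1.22 ± 0.19 log2 (adjusted p = 0.00895, limma). Cry2 rose by 0.67 log2 (adjusted p = 0.0025, limma), with a dimmer probe set at 0.12 log2 that did not pass, while Cry1 and Per1 changed by -0.44 and 0.38 log2 and did not pass. The probe sets of Per2 disagreed: one rose by 1.12 ± 0.20 log2 (adjusted p = 0.0204, limma) and the brighter one, which stands for Per2 in the list, changed by 0.13 log2 (adjusted p = 0.79). The rise of Per2 lost its call in 4 of 12 fits without 1 rat (adjusted p up to 0.0656, limma). Per3 likewise had a second, dim probe set that changed by 0.05 log2. The sampling hour of each rat is not in the labels, so its part in these differences was not tested.

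Among the falls, the taurine transporter gene Slc6a6 came first. Its values were 6.10, 6.69 and 7.70 log2 in the high-dose rats and 8.87, 9.09 and 9.45 log2 in the low-dose rats, with more than 1 log2 between the nearest rats. The change was -2.36 ± 0.16 log2, or 5.13-fold (adjusted p = 1.55e-05, limma), and a second probe set changed by -1.30 log2 (adjusted p = 0.00113). Of the 19 measured genes of taurine and sulfur amino acid metabolism, 2 fell and 0 rose (10.5%, median change -0.02 log2). The other was Gnmt, the glycine methyltransferase, at -0.43 ± 0.09 log2, which lost the call in 10 of 12 fits without 1 rat. The taurine synthesis genes Csad and Cdo1 changed by 0.02 and -0.02 log2 and did not pass.

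Cdkn1a, the cell cycle inhibitor p21 and a p53 target, had 8.08, 8.53 and 8.98 log2 in the high-dose rats and 9.97, 10.20 and 10.71 log2 in the low-dose rats. Rats of the same high dose differed by little, with 8.17 ± 0.08 log2 at 1054.2 mg/kg and 8.91 ± 0.07 log2 at 527.1 mg/kg (SD, n = 3 each). The change was -1.74 ± 0.12 log2 (adjusted p = 1.55e-05, limma), while a second, dimmer probe set changed by -0.46 log2 without passing (adjusted p = 0.0783). Of 15 measured p53 targets 1 fell, Cdkn1a, and 1 rose, Mdm2, the ubiquitin ligase that degrades p53, at 0.52 ± 0.09 log2 (adjusted p = 0.0258, limma). Mdm2 lost its call in 7 of 12 fits without 1 rat, and its other probe sets changed by 0.34 and 0.50 log2 without passing. Bbc3 and Ccng1 changed by 0.37 and -0.14 log2 and did not pass.

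Tubb2a, a beta-tubulin of microtubules, had 10.04, 10.53 and 11.25 log2 in the high-dose rats and 12.09, 12.24 and 12.44 log2 in the low-dose rats. The low-dose rats lay close together and the change was -1.66 ± 0.12 log2 (adjusted p = 1.55e-05, limma). Lgalsl, a galectin-related gene, fell in both of its probe sets, by 1.60 ± 0.17 and by 1.23 log2 (adjusted p 0.000946 and 0.00112, limma). Slc34a2, a sodium-phosphate cotransporter, had 7.16, 7.91 and 8.32 log2 in the high-dose rats and 9.11, 9.36 and 10.47 log2 in the low-dose rats, a change of -1.72 ± 0.23 log2 (adjusted p = 0.00405, limma).

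Sdc4, a cell surface heparan sulfate proteoglycan, changed by -0.67 ± 0.08 log2, and Skil, a repressor of TGF-beta signalling, by -0.87 ± 0.11 log2 (adjusted p 0.00133 and 0.0025, limma). Spin2b, a gene of the Spindlin family, changed by -1.23 ± 0.20 log2 (adjusted p = 0.0135, limma). Serpinb9b, of the serine protease inhibitors, changed by -1.21 ± 0.24 log2 (adjusted p = 0.0477, limma) and lost the call in 11 of 12 fits without 1 rat. The Spin2b values of the pools did not overlap, and those of Serpinb9b did.

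Of 21 measured immediate early genes, 2 were lower and 1 higher at the high doses (14.3%), with a median change of 0.02 log2 and 12 changes above 0. Egr1 had 7.57, 7.69 and 8.59 log2 in the high-dose rats and 8.58, 9.89 and 10.47 log2 in the low-dose rats, a change of -1.79 ± 0.29 log2 (adjusted p = 0.013, limma). The ranges touched at 1 rat of each pool, and the call was lost without 527.1 mg/kg replicate 1 (adjusted p = 0.0547). Dusp6, a phosphatase that turns ERK off, changed by -0.79 ± 0.12 log2 (adjusted p = 0.00628, limma), and its 2 other probe sets changed by -0.42 and -0.78 log2 without passing. The steps of Dusp6 were -0.12 log2 between 1054.2 and 132 mg/kg and -1.47 log2 between 527.1 and 66 mg/kg, and with 1 mean per pool it did not pass (adjusted p = 0.13, limma). Atf3, a stress-induced transcription factor, rose by 0.72 ± 0.14 log2 and lost its call in 8 of 12 fits without 1 rat, and Fos and Jun changed by 0.00 and 0.49 log2 without passing.

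**Figure D3:**
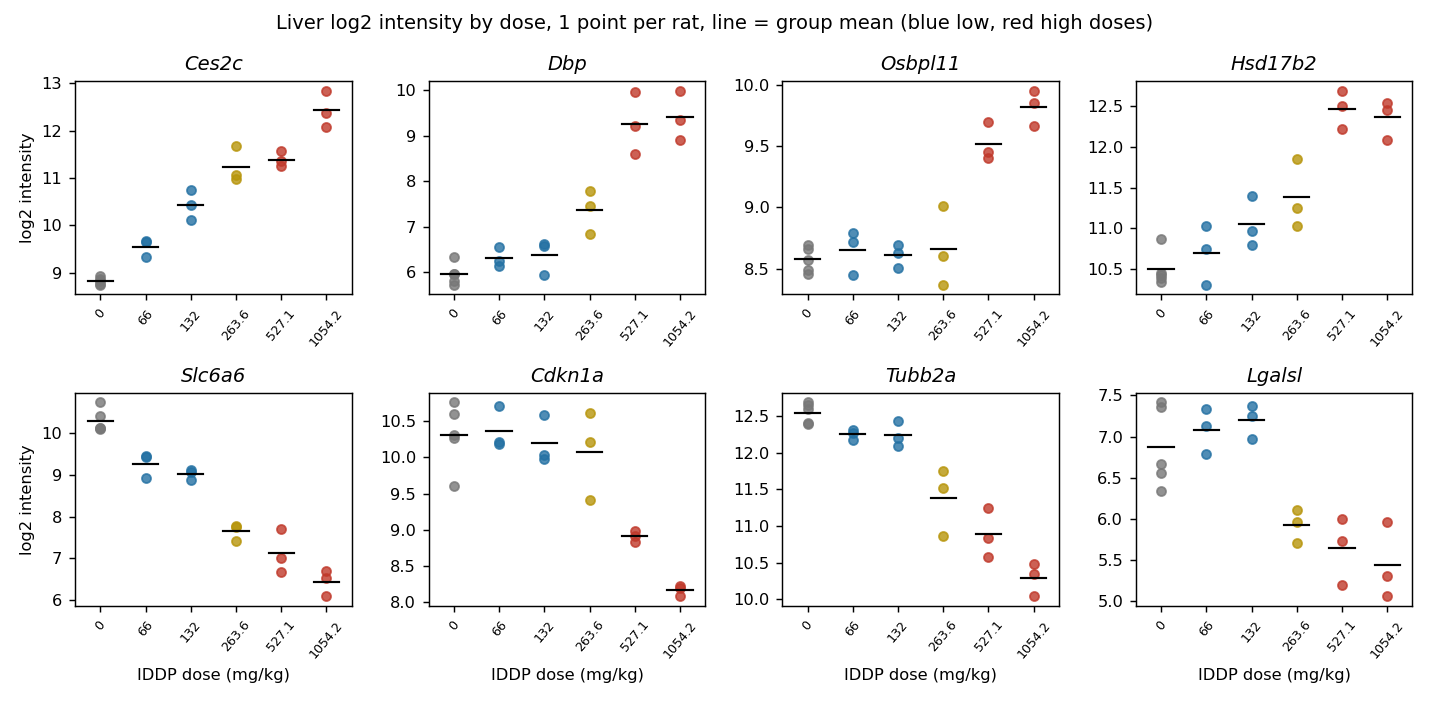
Log2 intensity (y axis) of 8 genes in every rat by IDDP dose (x axis, mg/kg, not to scale). Each point is 1 rat and each line a group mean: grey for 5 vehicle rats at 0, blue for the low doses, yellow for 263.6 mg/kg and red for the high doses, 3 rats per dose. In all 8 genes the red points lie apart from the blue points, Ces2c climbs at each step from 8.83 in vehicle rats to 12.43 log2 at 1054.2 mg/kg, and Osbpl11 averages 8.57 log2 in vehicle rats and 8.66 log2 at 263.6 mg/kg.

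The lipid genes that passed over the pools went in both directions. Of 25 measured genes of fatty acid and triglyceride synthesis, Insig1 and Lpin2 rose and Lpin1 and Acly fell (16.0%, median change -0.09 log2, 6 changes above 0). Lpin1, a phosphatidate phosphatase on the way to triglyceride, had 8.82, 9.51 and 9.81 log2 in the high-dose rats and 9.92, 10.32 and 11.06 log2 in the low-dose rats, a change of -0.99 ± 0.16 log2 (adjusted p = 0.0138, limma). Its relative Lpin2 rose by 0.76 ± 0.11 log2 (adjusted p = 0.00585, limma). The second probe sets changed by -0.65 log2 for Lpin1 and 0.09 log2 for Lpin2 and did not pass. Insig1, which holds the sterol sensor SCAP in the endoplasmic reticulum, rose by 1.08 ± 0.21 log2 and Acly, the citrate lyase, changed by -0.48 ± 0.10 log2 (adjusted p 0.0437 and 0.0441, limma). Insig1 and Acly lost their calls in 8 and 9 of 12 fits without 1 rat. With 1 mean per pool neither passed (adjusted p 0.169 and 0.0918, limma). The steps of Insig1 were 1.92 log2 between 1054.2 and 132 mg/kg and 0.23 log2 between 527.1 and 66 mg/kg. Those of Acly were -0.26 and -0.71 log2.

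Of 37 measured PPARalpha targets, 1 differed (2.70%, median change -0.10 log2), and 12 changes were above 0. It was Plin2, the lipid droplet coat protein, with 11.45, 12.27 and 12.40 log2 in the high-dose rats and 12.70, 13.03 and 13.26 log2 in the low-dose rats, a change of -0.93 ± 0.13 log2 (adjusted p = 0.00512, limma). A dimmer probe set of Plin2 changed by -0.56 log2 without passing. Of 19 measured cholesterol synthesis and uptake genes only Pmvk passed, at -0.48 ± 0.09 log2 (adjusted p = 0.0353, limma), and it lost the call in 8 of 12 fits without 1 rat. Of 23 measured bile acid genes 1 passed, Nr0b2 (4.35%, against 0.788% over all genes, median change 0.01 log2). Nr0b2, the small heterodimer partner that represses bile acid synthesis, had 8.97, 9.68 and 10.16 log2 in the high-dose rats and 7.64, 8.09 and 9.23 log2 in the low-dose rats, a change of 1.48 ± 0.24 log2 (adjusted p = 0.0119, limma).

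Pck1, a rate-limiting enzyme of gluconeogenesis, was the gene that passed among 19 measured genes of glucose handling (5.26%, against 0.788% over all genes). It had 13.59, 14.03 and 14.17 log2 in the high-dose rats and 12.46, 12.94 and 13.55 log2 in the low-dose rats, a change of 0.98 ± 0.17 log2 (adjusted p = 0.0204, limma). The values of the pools did not overlap, and the call was lost in 4 of 12 fits without 1 rat. Vehicle rats averaged 13.70 ± 0.21 log2 (SD) for Pck1. Without a test, this lay nearer to the high-dose mean of 13.98 log2 than to the low-dose mean of 13.00 log2. Of 31 measured genes of the unfolded protein and ATF4 response, Atf3 and Chac1, which degrades glutathione, were higher (6.45%, median change 0.09 log2). Chac1 rose by 0.79 ± 0.16 log2 (adjusted p = 0.0418, limma) and lost its call in 9 of 12 fits without 1 rat. Both calls lay near the threshold and were lost when any of several rats was left out. The list held 0 calls without 66 mg/kg replicate 2 or 3, 132 mg/kg replicate 1, 527.1 mg/kg replicate 2 or 3, or 1054.2 mg/kg replicate 3. It held 3 without 132 mg/kg replicate 2 and 1 without any other rat.

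Male-predominant liver genes gave 2 rises, Cyp3a18 and Akr1b7, and 1 fall among 14 measured (21.4%, against 0.788% over all genes). Their median change was -0.03 log2, with 5 changes above 0. The fall was Stac3, with 7.85, 9.23 and 7.001 log2 at 1054.2 mg/kg and 9.57, 9.54 and 9.85 log2 at 527.1 mg/kg, against 9.68 to 10.77 log2 in the low-dose rats. Its change was -1.58 ± 0.30 log2 (adjusted p = 0.0351, limma), lost in 9 of 12 fits without 1 rat. Cyp2c11, the main male-specific P450 of rat liver, changed by -0.36 ± 0.09 log2 and did not pass (adjusted p = 0.121, limma). The Cyp2c11 values were 13.49, 13.51 and 13.35 log2 at 1054.2 mg/kg, below every low-dose rat (13.81 to 14.22 log2). At 527.1 mg/kg they were 13.83, 13.97 and 14.16 log2, inside the low-dose range. Of 12 measured female-predominant genes 0 passed in limma, with 6 at an unadjusted p under 0.05, against 2907 of 31042 over all probe sets.

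Of the markers of other cells only Lox passed. In a piece of tissue, fewer cells of a type and less RNA per cell cannot be told apart. In limma 0 genes passed among the measured markers of Kupffer cells (13), endothelium (14), cholangiocytes (10), neutrophils (9), T and NK cells (15), B cells (7), erythroid cells (8) and pancreas (14). At an unadjusted p under 0.05 these lists held 1, 0, 1, 0, 1, 2, 4 and 0 genes, against 2907 of 31042 over all probe sets (limma). Of 8 erythroid markers 0 had a change above 0, and their mean level ran from 6.98 to 7.47 log2 in the high-dose rats and from 7.42 to 7.66 log2 in the low-dose rats. Hbb, the beta-globin chain, changed by -0.53 ± 0.21 log2 without passing (adjusted p = 0.42, limma).

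Of 19 measured stellate cell and fibroblast markers, 5 had a change above 0 and 1 passed (5.26%, against 0.788% over all genes). Their mean levels were 7.45 to 7.72 log2 in the high-dose rats and 7.58 to 7.98 log2 in the low-dose rats. The gene that passed was Lox, which cross-links collagen, and both of its probe sets were lower, at -1.53 ± 0.28 and -1.21 ± 0.23 log2 (adjusted p 0.0319 and 0.0339, limma). They lost their calls in 6 and 7 of 12 fits without 1 rat. Col3a1 and Pdgfra changed by -0.43 and -0.40 log2 and Col1a1 and Vim by -0.09 and 0.08 log2, all without passing. Of 28 measured acute phase and inflammation genes 0 passed over the pools in limma, with 6 at an unadjusted p under 0.05. Over all probe sets this was 2907 of 31042. The largest change was in the chemokine gene Cxcl1 at -2.15 ± 0.57 log2 (adjusted p = 0.149, limma). Cxcl1 ran from 6.83 to 9.06 log2 in the high-dose rats and from 7.61 to 11.66 log2 in the low-dose rats. Between 527.1 and 66 mg/kg alone Cxcl1 passed, at -2.04 ± 0.16 log2 (adjusted p = 0.00136, limma). Between 1054.2 and 132 mg/kg it changed by -2.26 ± 0.97 log2 and did not pass (adjusted p = 0.848, limma). The rats at 132 mg/kg were spread widely, with 11.66, 11.32 and 7.61 log2. The part of any of these markers in the other results was not tested.

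The doses within a pool were compared as well. Between 1054.2 and 527.1 mg/kg, 3 probe sets differed in limma (0.00966%), 2 higher (0.00644%) and 1 lower, with 1600 at an unadjusted p under 0.05, where 1552.1 would be found by chance. Between 132 and 66 mg/kg 1 differed (0.00322%), with 980 at an unadjusted p under 0.05. Among the 152 probe sets that separated the pools, the mean at 1054.2 mg/kg was farther from the low-dose mean than that at 527.1 mg/kg in 111. Of the same 152, 64 had an unadjusted p under 0.05 between the high doses and 21 between the low doses (limma). Over all 31042 probe sets these counts were 1600 and 980. The 152 were chosen by a small p in the same fit, and the contrasts within the pools share its estimate of spread. The 64 and 21 therefore cannot show how many truly differed within the pools.

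The 3 that differed within the high pool were Akr1b7, Prlr and Dhrs7l1. Akr1b7 was higher by 2.09 log2 at 1054.2 than at 527.1 mg/kg, as the values above show. Prlr, the prolactin receptor, had 8.90, 8.93 and 8.84 log2 at 1054.2 mg/kg and 7.63, 8.18 and 7.75 log2 at 527.1 mg/kg, a difference of 1.04 log2. Dhrs7l1, a short-chain dehydrogenase gene of the male-predominant list, had 10.17, 11.03 and 9.99 log2 at 1054.2 mg/kg and 12.52, 12.45 and 12.98 log2 at 527.1 mg/kg, a difference of -2.25 log2. All 3 had an adjusted p of 0.0415 in limma. The count of 3 was 0 without 66 mg/kg replicate 2 or 3, 132 mg/kg replicate 1 or 3, or 527.1 mg/kg replicate 1 or 3. It was 1 without 66 mg/kg replicate 1 or 1054.2 mg/kg replicate 3, and 5 without 132 mg/kg replicate 2. It was 3 without 1054.2 mg/kg replicate 1 and 4 without 527.1 or 1054.2 mg/kg replicate 2. Of the 3 named probe sets, 0 passed without 1054.2 mg/kg replicate 1 or replicate 3.

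For genes that did not pass, the difference between the high doses is given with its interval. For Dbp it was 0.15 log2 (95% interval -0.54 to 0.84), for Slc6a6 -0.68 log2 (-1.18 to -0.18) and for Ces2c 1.04 log2 (0.62 to 1.46), none with an adjusted p under 0.05 in limma. Within the low pool the probe set that differed has no gene name here. It had 6.96, 6.80 and 7.12 log2 at 132 mg/kg and 10.25, 10.25 and 10.996 log2 at 66 mg/kg, a difference of -3.54 log2 (adjusted p = 0.000516, limma). Vehicle rats averaged 10.62 ± 0.42 log2 (SD, n = 5), and the rats at 263.6 mg/kg had 10.64, 7.05 and 11.05 log2, so 1 of these also lay at the level of 132 mg/kg. This probe set was also among the 152, at 1.74 ± 0.21 log2, and with 1 mean per pool it did not pass (adjusted p = 0.403, limma). With 1054.2 mg/kg replicate 1 left out, 2 probe sets differed within the low pool.

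The comparison can also be made as 2 steps that share no rat, each over an 8-fold ratio of doses: 1054.2 against 132 mg/kg and 527.1 against 66 mg/kg. The first gave 22 probe sets past the threshold in limma (0.0709%), 15 higher (0.0483%) and 7 lower (0.0226%). The second gave 88 (0.283%), 53 higher (0.171%) and 35 lower (0.113%), each fitted on 6 arrays. Of these, 8 passed in both, which is 36.4% of the first and 9.09% of the second, and all 8 had the same direction. The 8 probe sets stood for Slc6a6, Cdkn1a, Tubb2a, Lgalsl (2 probe sets), Osbpl11, Ces2c and Dbp. Across all 31042 probe sets Pearson's r between the changes of both steps was 0.279, as a description over probe sets that come from jointly processed arrays. With the partners swapped, so that 1054.2 stood against 66 and 527.1 against 132 mg/kg, it was 0.268.

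Dbp changed by 3.02 ± 0.28 log2 between 1054.2 and 132 mg/kg and by 2.93 ± 0.28 log2 between 527.1 and 66 mg/kg (SE). Slc6a6 changed by -2.58 ± 0.17 and -2.14 ± 0.24 log2 over the same steps. The counts moved with single rats. In place of 22 there were 4, 6 and 17 without 132 mg/kg replicates 1, 2 and 3 and 8, 13 and 4 without 1054.2 mg/kg replicates 1, 2 and 3. In place of 88 there were 17, 20 and 37 without 66 mg/kg replicates 1, 2 and 3 and 56, 131 and 25 without 527.1 mg/kg replicates 1, 2 and 3.

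Cell cycle genes passed in the step between 527.1 and 66 mg/kg. Over both pools, 0 of 42 measured cell cycle and replication genes passed in limma, with a median change of 0.29 log2 and 38 changes above 0. At an unadjusted p under 0.05 there were 18 of the 42, against 2907 of 31042 over all probe sets (limma). Between 527.1 and 66 mg/kg 8 rose and 0 fell, with a median change of 0.53 log2, against 0.45% of all genes past the threshold in either direction. They were Ccna2, Cdca3, Ttk, Bub1, Prc1, Kif11, Kif20a and Ccnb2, named after their values were seen. Between 1054.2 and 132 mg/kg 0 passed, with 2 at an unadjusted p under 0.05 and a median change of 0.04 log2, against 0.12% of all genes. The difference between the steps passed for 0 of the 42 (limma, 17 at an unadjusted p under 0.05, against 1335 of 31042 over all probe sets).

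The list's mean level per rat was 6.63, 7.28 and 7.14 log2 at 1054.2 mg/kg and 7.58, 7.24 and 7.46 log2 at 527.1 mg/kg. It was 7.05, 6.85 and 7.003 log2 at 132 mg/kg, 6.89, 6.80 and 6.99 log2 at 66 mg/kg and 6.61 on average in vehicle rats. The rat 1054.2 mg/kg replicate 1 thus lay at the vehicle level, and without it 8 of the 42 were higher over both pools. Cdk1, the mitotic kinase, had 6.10, 7.93 and 7.90 log2 at 1054.2 mg/kg and 8.76, 7.67 and 8.51 log2 at 527.1 mg/kg, against 6.30 to 7.54 log2 in the low-dose rats. Its change over the pools was 0.80 ± 0.31 log2 (adjusted p = 0.408, limma).

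**Figure D4:**
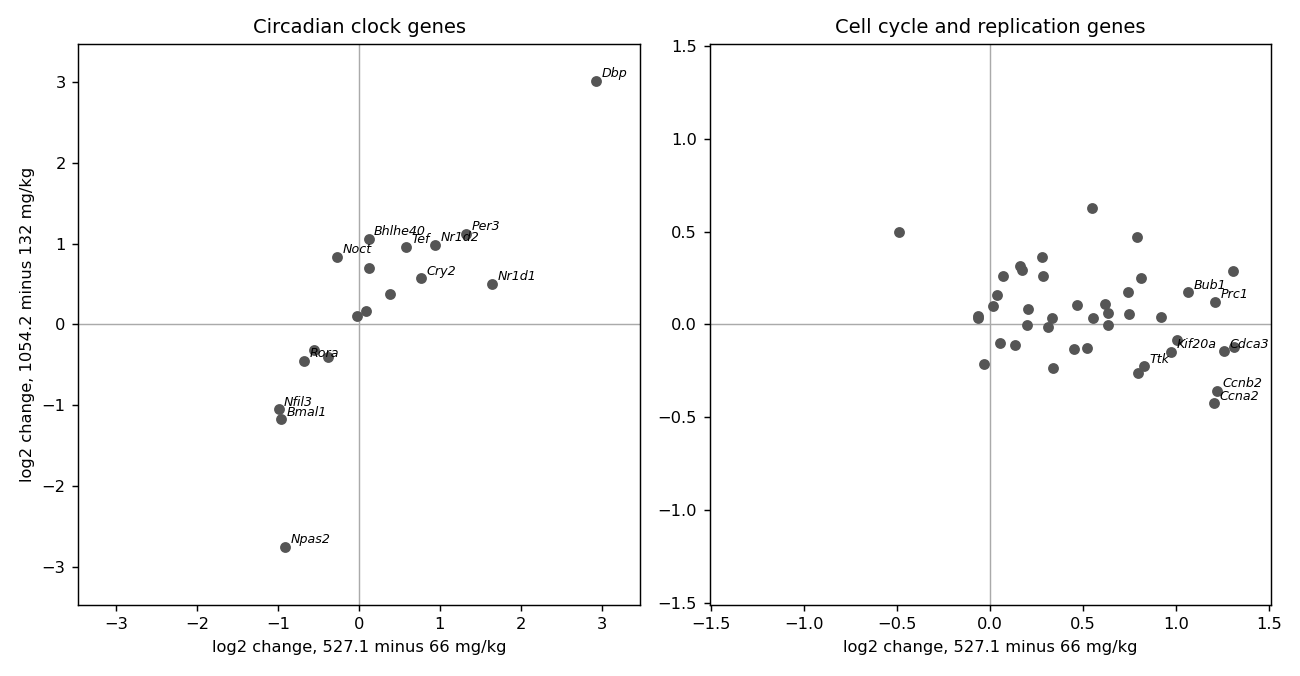
Change of each clock gene (left) and each cell cycle gene (right) between 527.1 and 66 mg/kg (x axis, log2) and between 1054.2 and 132 mg/kg (y axis, log2), 3 rats per dose and no rat shared between axes. The labelled clock genes Dbp, Per3 and Nr1d2 lie in the upper right and Npas2, Bmal1 and Nfil3 in the lower left, while the cell cycle genes have a median of 0.53 on the x axis and 0.04 on the y axis.

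Myc, a growth-promoting transcription factor, was the probe set whose steps differed after adjustment (0.00322% of probe sets), while over the pools it changed by 0.07 ± 0.14 log2 and did not pass. It had 8.64, 9.31 and 9.54 log2 at 1054.2 mg/kg, 7.95, 7.996 and 7.77 log2 at 527.1 mg/kg, 7.75, 8.18 and 7.66 log2 at 132 mg/kg and 9.03, 9.02 and 9.12 log2 at 66 mg/kg. The 1054.2 and 66 mg/kg rats were the high ones, so the step was 1.30 log2 from 132 to 1054.2 mg/kg and -1.15 log2 from 66 to 527.1 mg/kg, a difference of 2.45 log2 (adjusted p = 0.0157, limma, 1335 probe sets at an unadjusted p under 0.05). That call was lost without any 1 of the rats at 66 mg/kg, without 132 mg/kg replicate 3 and without 527.1 mg/kg replicate 1 or 3. Between 2 and 5 probe sets passed without 132 mg/kg replicate 1, 527.1 mg/kg replicate 2 or 1054.2 mg/kg replicate 1 or 2.

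The rats outside the comparison place the low doses against no exposure. The values that follow are descriptions without a test. For 142 of the 152 probe sets (93.4%) the vehicle mean was nearer to the low-dose mean than to the high-dose mean. In 103 the low-dose mean lay between the vehicle mean and the high-dose mean. The mean at 263.6 mg/kg lay between the low-dose and high-dose means for 127 of the 152 and for 34 of the 36 with a change of at least 2-fold. For those 36 its median position was 47% of the way from the low-dose to the high-dose mean, 32.8% among the rises and 52.4% among the falls.

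Gsta3, Abcc3, Nr1d1, Ces2c and Per3 had low-dose means above the vehicle mean. For Gsta3, Abcc3 and Ces2c every low-dose rat lay above every vehicle rat, while for Nr1d1 and Per3 the values overlapped. Gsta3 averaged 10.55 log2 at the high doses and 9.52 log2 at the low doses, against 7.97 ± 0.13 log2 in vehicle rats (SD, n = 5). Abcc3 averaged 9.62 log2 at the high doses and 7.98 log2 at the low doses, against 6.58 ± 0.21 log2 in vehicle rats. Slc6a6 was likewise already lower at the low doses, with 6.78 log2 at the high and 9.14 log2 at the low doses, against 10.30 ± 0.27 log2 in vehicle rats.

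Insig1, Nr0b2, AA926063, Alas1 and Spin2b went the other way, with vehicle means shifted from the low-dose mean towards the high-dose mean. Insig1 averaged 10.75 log2 at the high doses and 9.68 log2 at the low doses, against 10.83 ± 0.52 log2 in vehicle rats. Nr0b2 averaged 9.66 log2 at the high doses and 8.19 log2 at the low doses, against 9.15 ± 0.47 log2 in vehicle rats.

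Some genes stayed at the low-dose level up to 263.6 mg/kg and others had moved by then. Osbpl11 and Nr0b2 had means at 263.6 mg/kg that lay 3% and 2% of the way to the high-dose mean, Nfil3 9%, AA926063 11% and Cdkn1a 12%. Lgalsl lay 76% of the way, Nr1d1 83%, Spin2b 84%, Lox 67% (probe set of larger change) and Serpinb9b 115%. With 3 rats at 263.6 mg/kg these positions carry the spread of those rats.

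**Figure D5:**
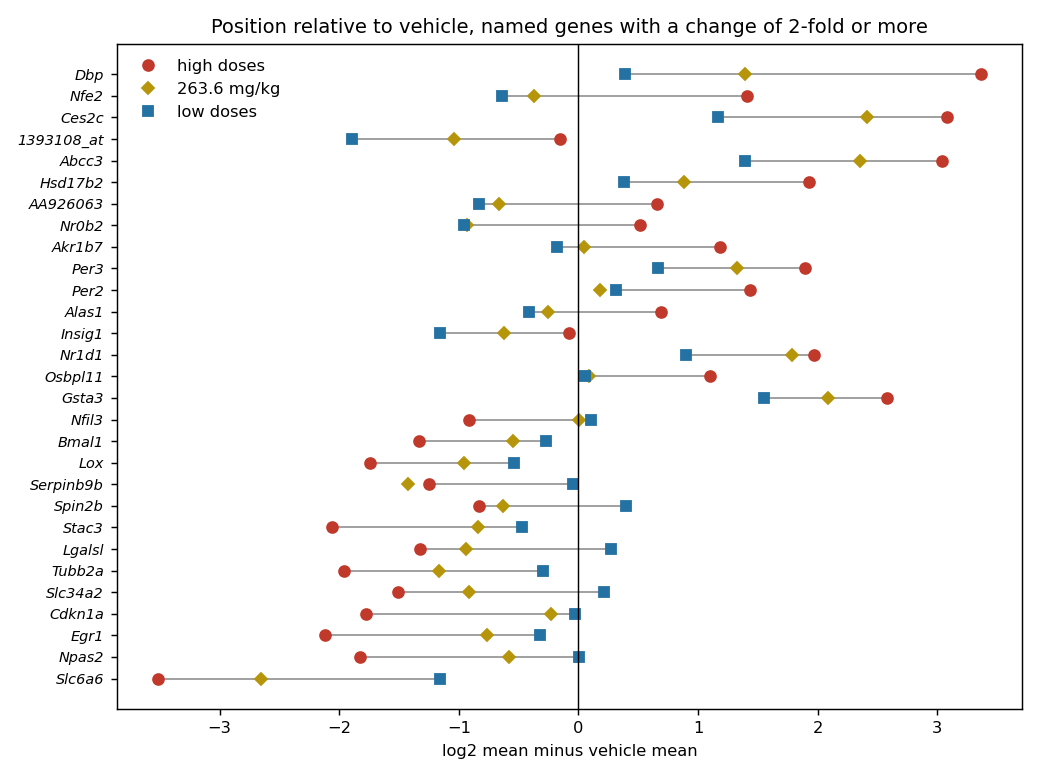
Mean of the high-dose rats (red circles), of the 263.6 mg/kg rats (yellow diamonds) and of the low-dose rats (blue squares) relative to the vehicle mean (x axis, log2 difference, 0 is vehicle) for the named genes and 1 unnamed probe set with a change of at least 2-fold (y axis). The grey line joins the low-dose and high-dose means, n = 6, 3 and 6 rats. Dbp spans the widest gap among the rises and Slc6a6 among the falls, Lox is drawn from its probe set with the smaller change, and the blue square of Insig1 lies left of both its red circle and the vehicle line.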

How the data were processed

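The authors deposited 1 table of log2 intensities per probe set for 20 liver arrays, which per the submitters' processing notes came from RMA; the labels name neither a version of RMA nor the set of arrays it was run on. The table holds no detection calls. Of 31099 probe sets, 57 controls were left out and 31042 tested. Gene symbols came from the array's annotation (20826 probe sets with 1 symbol, 436 with several, 9780 unnamed), and 20758 were matched to RefSeq GRCr8.

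A linear model with 1 mean per dose was fitted to the 12 arrays in limma 3.58.1 under R 4.3.3 (8 residual and 5.52 prior degrees of freedom), and the mean of 527.1 and 1054.2 mg/kg was compared with that of 66 and 132 mg/kg. Tests were two-sided, with Benjamini-Hochberg adjustment over all probe sets and calls at 0.05. That fit also gave the contrasts within pools and the difference of the 8-fold steps, and 2 separate fits of 6 arrays gave each step alone. The code was tested on simulated data. The 33 lists (561 measured genes, 43 in more than 1) were read from each gene's probe set of highest mean. Members, lists and rules were chosen with earlier results of these data known.

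Named genes were, among those past the threshold with 1 symbol and all 6 high-dose rats on 1 side of the low-dose mean, the 12 largest rises and falls and the 6 smallest p in each direction, up to 4 members of each list, or its largest change where none passed, the genes at the extremes of the 263.6 mg/kg and vehicle positions, those past the threshold within pools, and the clock and NRF2 genes whose promoters were searched. Where other probe sets of a gene disagree, they are given beside the value. Replicate numbers do not pair the rats: deviations of rats with the same number correlated at -0.352 to 0.347. Alternatives were a filter on dim probe sets, 1 probe set per gene, centred medians, repeated quantile normalization, an intensity trend, array weights, a replicate block, the 3' minus 5' difference as covariate, 1 mean per pool, and each rat left out. Errors of changes are standard errors. The number of arrays limits the precision.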

Additional observations from a re-analysis of the deposited data

Results flagged for a closer look

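Of 90 groups of rats examined among the named genes, 4 held 1 rat that stood apart from the rest of its group, where chance gives 4.5. For Hsd17b2, vehicle replicate 2 was the highest of its group at 10.86 log2, against a median of 10.41 in the others. For Slc34a2, 132 mg/kg replicate 2 was the highest low-dose rat at 10.47 log2, against 9.20. For Nr1d2, 66 mg/kg replicate 3 was the lowest low-dose rat at 8.48 log2, against 9.13, and vehicle replicate 2 the highest vehicle rat at 9.18 log2, against 8.35.

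For Myc, the change from 132 to 1054.2 mg/kg exceeded that from 66 to 527.1 mg/kg by 2.45 log2, tested as an interaction in limma.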

How the results depend on the processing

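Between high and low doses, 152 probe sets passed, and the count lay between 123 and 200 under every alternative other than array weights (1072, with 1054.2 mg/kg replicate 3 weighted 7.36) and single rats left out (90 to 268). With the replicate block it was also 152, 122 of them shared, although the numbers do not pair the rats. Within the high pool the 3 probe sets became 0 with dim probe sets out or medians centred, 442 with weights, 1 with the block, 5 with the covariate and 0 to 5 without 1 rat. Within the low pool 1 became 0 with 1 probe set per gene (the probe set is unnamed and so not included), 2 with the block and 1 to 2 without 1 rat. For the difference of the steps 1 became 14 with weights, 2 with the block and 0 to 5 without 1 rat. Between 1054.2 and 132 mg/kg 22 became 14 with quantile normalization again, 625 with weights and 4 to 17 without 1 rat. Between 527.1 and 66 mg/kg 88 became 50 with dim probe sets out, 140 with weights and 17 to 131 without 1 rat. The causes were not tested. The 3' minus 5' difference lay between -0.45 and -0.10 log2 without 1 rat. Of 56 called named probe sets, 32 kept their call in all 12 fits without 1 rat, 23 lost it in 4 or more, 26 kept it in every alternative run and 0 reversed. With 1 mean per pool 39 of the 56 kept it, and with the 3' minus 5' covariate 40. Of values that had not passed, Ehd3 turned to -0.028 log2 with the covariate, and Myc lay between -0.020 and 0.20 log2 without 1 rat, below 0 without 1054.2 mg/kg replicate 3.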

Other observations

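Other genes that differed between the pools, named here after their values were seen, fall outside the lists. Tuba4a, an alpha-tubulin, changed by -0.70 log2 (adjusted p = 0.0038, limma), in the direction of Tubb2a. Slc13a4, a sulfate transporter, changed by -0.80 log2, Slc16a1, a lactate and pyruvate transporter, by -0.70 log2 and Inhba, an activin subunit, by -0.93 log2. Foxa3, a liver transcription factor, changed by -0.83 log2. Klf15, a transcription factor of amino acid use and gluconeogenesis, rose by 0.86 log2, Bcl2l11, which encodes the pro-apoptotic protein BIM, by 0.86 log2 in 1 of its 3 probe sets and Cers6, a ceramide synthase, by 0.91 log2 (all with an adjusted p under 0.05 in limma). Ddit4, an inhibitor of mTORC1, rose by 0.82 log2 (adjusted p = 0.0491, limma). Prlr, which differed between the high doses in 1 probe set, rose over the pools by 0.99 log2 in a dimmer one (adjusted p = 0.0174, limma).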
